A study of Mus musculus with 12 samples.

Results

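Among 12 sequenced mammary tumors from 9 mice, 5 shared their mouse with another sequenced tumor, and these 5 sister tumors are described here. Tumors 3 and 4 arose in mouse 10033, and tumors 10, 11 and 12 in mouse 11488. The other 7 mice gave 1 tumor each and serve as background. The labels add the suffixes 4L and 5L to the tumors of mouse 10033 and 2R, 4R and 5L to those of mouse 11488, and the sources used here do not explain them. Every tumor was untreated and carried the MADM RG;GR alleles on a mixed background, so no labelled variable other than these suffixes and the animal number tells the tumors apart. Per the study's methods, the mice combined mutant Brca1 and p53 alleles on chromosome 11 with MADM cassettes and an MMTV-Cre transgene, which acts mainly in mammary epithelium. The age of the sequenced mice is not given in the sources used here. A tumor sample is a piece of tissue that holds tumor cells together with stroma, vessels, fat and immune cells. Genes were kept when their TPM (a share of the RNA, corrected for transcript length and scaled to the same total in each tumor) was 10 or more in at least 1 of the 5 tumors, which left 11824 of 47593 genes. Ptx3, whose highest value was 10 TPM, lay just inside this limit, and Cep135, at 9.99 TPM, just outside. The question was which genes and programs sisters share and in which they diverge.

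MADM (mosaic analysis with double markers) uses Cre to exchange parts of homologous chromosomes in a dividing cell, so that scattered single cells can lose both copies of a gene linked to the cassette in an otherwise heterozygous gland. Brca1 acts in repair of DNA breaks by homologous recombination, and p53 halts or kills cells with damaged DNA, so that cells without both tend to gain and lose chromosome segments. Sister tumors share a germline genotype, an age and a host, while each may start from its own mutant cell. Whether the sisters here came from 1 cell or from several was not tested.

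The tumors were alike in their global measures. The values of a tumor summed to 999770 to 999898 TPM, 15859 to 16417 genes reached 1 TPM, and the mitochondrial genes took 3.66% to 4.98%. Depth is unknown, because TPM keeps no record of read numbers. At most 3 genes had exactly the same nonzero value in both tumors of a sister pair, so each tumor was counted as its own library. Epithelial identity was present in all 5: of the 8 epithelial junction genes, each was at or above the 8 TPM of Ocln in tumor 4, the cell adhesion gene Cdh1 lay between 136 and 261 TPM, and the luminal keratin Krt8 between 1176 and 2192 TPM.

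Sisters were closer to each other than to the tumors of the other mouse. The distance of a pair was the mean absolute difference in log2(TPM + 1) over the 11824 genes. It was 0.253 between tumors 3 and 4, 0.303 between tumors 11 and 12, 0.443 between tumors 10 and 11, and 0.493 between tumors 10 and 12. The 6 pairs from different mice lay between 0.547 and 0.681, so the groups of pairs did not overlap. The mean was 0.373 ± 0.113 (SD, 4 sister pairs) within a mouse and 0.615 ± 0.046 (SD, 6 pairs) between the mice, a difference of 0.24 (one-sided exact permutation test of the animal labels, p = 0.1). This p is the smallest that the 10 possible assignments allow, so the design cannot reach 0.05. Leaving out single tumors gave differences of 0.17 to 0.36.

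**Figure D1:**
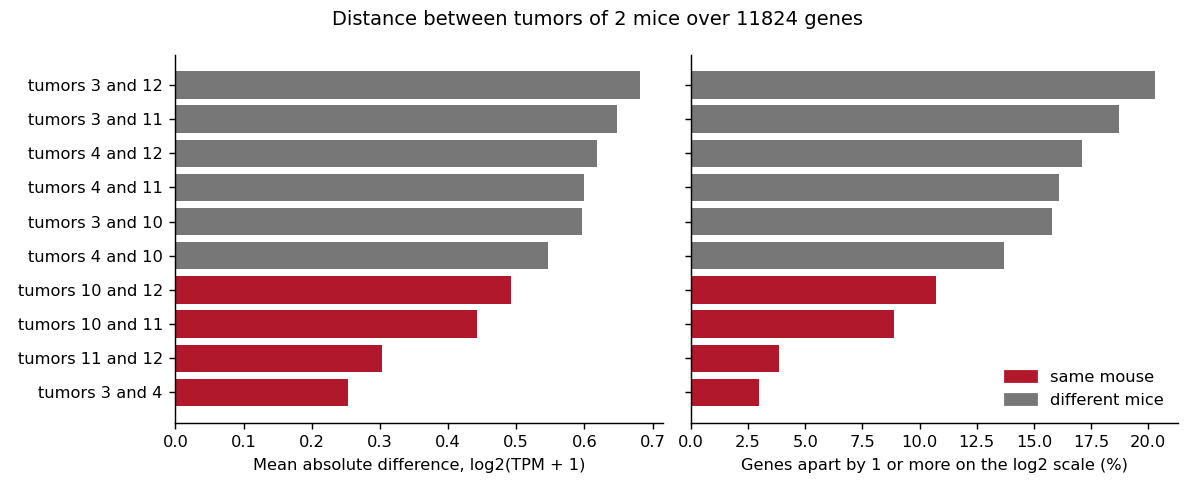
Each bar is a pair of tumors, in red for sisters and in gray for tumors of different mice, with, in the left panel, the mean absolute difference in log2(TPM + 1) and, in the right panel, the percentage of the 11824 genes that differed by 1 or more on that scale. The 4 sister pairs end at or below 0.493 and the 6 others begin at 0.547.

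The closeness was not even, and tumor 10 stood apart from its sisters. A gene was called apart in a pair when its log2(TPM + 1) differed by 1 or more, that is 2-fold on the TPM + 1 scale. This held for 350 genes (2.96%) between tumors 3 and 4 and for 455 genes (3.85%) between tumors 11 and 12. It held for 1049 genes (8.87%) between tumors 10 and 11 and for 1260 genes (10.7%) between tumors 10 and 12. Pairs from different mice had 1621 to 2402 genes apart (13.7% to 20.3%). Among all 66 pairs of the 12 tumors, measured on 13432 genes by the same rule over all tumors, the sister pairs ranked 1st (tumors 3 and 4), 2nd (11 and 12), 5th (10 and 11) and 8th (10 and 12). Tumor 5, from another mouse, was nearer to tumor 11 (0.359) than tumor 10 was (0.446), and it was nearer to tumor 10 (0.470) than tumor 12 was (0.496). For tumors 3 and 4 the nearest tumor of another mouse was tumor 10, at 0.594 and 0.552. These ranks are a description of single tumors and carry no test.

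Most genes were held in common. Of the 11824 genes, 7556 (63.9%) were apart in none of the 10 pairs, 2360 (20%) were apart between the mice but in no sister pair, and 1908 (16.1%) were apart in at least 1 sister pair. Of these, 350 were apart in mouse 10033 and 1728 in mouse 11488, with 170 in both, which is 48.6% of the first list and 9.84% of the second. In mouse 11488 the pattern of a single divergent tumor was most frequent for tumor 10, with 252 genes higher and 322 lower than in both sisters while the sisters were within 1 of each other. The same counts were 32 and 84 for tumor 11, and 100 and 54 for tumor 12.

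In mouse 10033 nearly all of the genes apart by 1 or more were higher in the same tumor. Of the 350, 335 (2.83% of all genes) were higher in tumor 4 and 15 (0.127%) in tumor 3. Differences of any size ran the other way, with 7018 genes higher in tumor 3 and 4779 in tumor 4. Genes of stromal matrix, fat, mesenchymal cells and antibody-producing cells were on the side of tumor 4. The fibroblast and matrix list, which holds collagens and other products of fibroblasts, was higher in tumor 4 for 10 of 10 members and by 1 or more for 9 of 10, against 2.83% of all genes. Col3a1, a fibrillar collagen whose exons overlap another gene, had 375 TPM in tumor 3 and 1091 TPM in tumor 4. Dcn, the matrix proteoglycan decorin, had 88.2 TPM in tumor 3 and 285 TPM in tumor 4. The 9 genes of the adipocyte list were also all higher in tumor 4, 8 of them by 1 or more. Fabp4, the fatty acid carrier of fat cells, had 107 and 284 TPM, and the fat hormone gene Adipoq 11.9 and 32.7 TPM. Of the 8 plasma cell genes 7 were higher in tumor 4, 4 of them by 1 or more, and 1 was higher in tumor 3. Igkc, the kappa light chain constant region made by plasma cells, had 61.4 TPM in tumor 3 and 281 TPM in tumor 4. All 5 B lymphocyte, all 7 T lymphocyte and 7 of 8 macrophage genes were also higher in tumor 4, 1 per list by 1 or more. Of the 7 neutrophil genes 5 were higher in tumor 3, none by 1 or more. Of the 8 mesenchymal genes, 8 were higher in tumor 4 and 4 of them by 1 or more. All 8 endothelial genes were higher in tumor 4 as well, none of them by 1 or more. In bulk tissue, fewer cells of a type and less RNA per cell cannot be told apart.

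The epithelial lists lay on the other side by a smaller margin. All 8 epithelial junction genes, 4 luminal keratins and 10 luminal progenitor and alveolar genes were higher in tumor 3, none of them by 1 or more. The median difference of tumor 3 minus tumor 4 was 0.48 for the junction genes, 0.37 for the luminal keratins and 0.29 for the progenitor and alveolar genes, beside 0.06 over all genes and -1.35 for the fibroblast and matrix genes. The part that the share of stroma has in these differences was not tested.

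The protein-coding genes with the largest differences between tumors 3 and 4 belonged to other programs. Crabp1, a retinoic acid-binding protein, had 1.96 TPM in tumor 3 and 111 TPM in tumor 4. Stmn2, a regulator of microtubules best known from neurons, had 2.14 and 44.1 TPM. Both were also low in the tumors of mouse 11488, at 0.315 to 13.98 TPM, so tumor 4 was alone among the 5 with high values. Uchl1, a deubiquitinase of neurons, was listed at 0 in tumor 3 and at 16.1 TPM in tumor 4. Uchl1 and Brinp3 (0.273 and 16.4 TPM) have exons that overlap another annotated gene, so their values are uncertain. The cornified envelope gene Lce1g had 0.795 and 26.3 TPM. Fgfr1, a receptor for fibroblast growth factors, had 15.4 TPM in tumor 3 and 69.9 TPM in tumor 4 and was higher still in mouse 11488, with 137, 360 and 584 TPM in tumors 10, 11 and 12. Fgfr1 differed by 1 or more in 3 of the 4 sister pairs. On the side of tumor 3 the 5 largest differences were those of Gm28036, Hnrnpa3, Mapkapk5, Gm21981 and Pakap. All 5 overlap another gene in their exons, so that StringTie could have split reads between the partners. Hnrnpa3, the largest of them by level, had 106 TPM in tumor 3, 25.2 TPM in tumor 4 and 20.7 to 32.1 TPM in mouse 11488.

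In mouse 11488 milk protein and basal keratin genes were among those apart between sisters. Most milk protein genes were lower in tumor 10 than in its sisters, 7 of 8 against each. Of the 8 on the list, 4 were higher by 1 or more in tumor 11 (4.47% of all genes) and 5 in tumor 12 (6.12%), and none was higher by 1 or more in tumor 10 (4.4% and 4.53%). The exceptions were Csn1s2a, with 3.85 TPM in tumor 10 and 1.98 TPM in tumor 11, and Wap, with 0.189 TPM in tumor 10 and 0 in tumor 12. Csn1s1, an alpha casein, had 11.5 TPM in tumor 10, 437 TPM in tumor 11 and 1050 TPM in tumor 12, beside 224 and 186 TPM in tumors 3 and 4. Wfdc18, an alveolar gene of the luminal progenitor list, had 1432, 6404 and 3795 TPM in tumors 10, 11 and 12. Of the 10 genes on that list 8 were higher in tumor 11 than in tumor 10, 3 of them by 1 or more, while Aldh1a3 and Lbp were lower. Trf, the iron carrier transferrin, chosen after its values were seen and with exons that overlap another gene, had 373 TPM in tumor 10, 5552 TPM in tumor 11 and 2921 TPM in tumor 12. For Csn1s1, Wfdc18 and Trf tumors 11 and 12 were the high pair. Slc38a3, a glutamine transporter, showed the same pattern with 0.445, 50.3 and 42.3 TPM, and so did Sema3b, a secreted semaphorin, with 6.65, 221 and 131 TPM. Twist1, a transcription factor of mesenchymal cells, had 1.79 TPM in tumor 10 and 21.6 and 23.0 TPM in tumors 11 and 12, while the median of its list differed by -0.31 and 0.06 in these pairs.

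Some basal keratins were apart in each pair of these sisters. The basal keratin Krt6a, of stressed and dividing epithelium, had 49.4 TPM in tumor 10, 5.40 TPM in tumor 11 and 55.0 TPM in tumor 12. Krt5 had 2.21, 0.195 and 11.1 TPM in the same order. Of the 6 basal keratins 4 were higher by 1 or more in tumor 10 than in tumor 11 (4.4% of all genes) and 4 in tumor 12 than in tumor 11 (2.69%), with 0 higher by 1 or more in tumor 11 than in tumor 12 (1.16%). Tumor 12 was above tumor 10 for 5 of 6, 3 of them by 1 or more (6.12%). Between tumors 10 and 11 there were exceptions: Krt15 had 0.108 TPM in tumor 10 and 3.38 TPM in tumor 11, higher by 1 or more, and Krt17 had 31.9 and 45.0 TPM, so that tumor 10 was the lowest of the 3 for both. Krt6a and Krt5 overlap other genes in their exons. Dmkn, a secreted epidermal protein, was listed at 0 in tumor 11 against 25.9 TPM in tumor 10 and 14.4 TPM in tumor 12. Prl2c2 had 83.1 TPM in tumor 10, 0.252 TPM in tumor 11 and 104 TPM in tumor 12. Its close copy Prl2c3, with which it can share reads, had 98.6, 0.530 and 159 TPM. Both belong to the proliferin group of prolactin-related growth factors, and both were also present in tumors 3 and 4, at 30.9 to 263 TPM, so tumor 11 was the only low tumor of the 5. Tumor 10 was the high tumor for Dynap (128, 0.536 and 10.1 TPM) and for the water and glycerol channel Aqp3 (47.4, 1.00 and 14.9 TPM).

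Tumor 12 carried the highest level of a pair of imprinted genes, that is genes read from 1 parental copy. H19, a noncoding RNA, had 186 TPM in tumor 10, 486 TPM in tumor 11 and 3663 TPM in tumor 12. Igf2, a growth factor gene beside it on chromosome 7, had 3.29, 9.85 and 164 TPM. Both were highest in the same tumor, and both overlap other annotated exons. In mouse 10033 H19 had 37.9 and 46.9 TPM and Igf2 at most 1.93 TPM. A list of 14 imprinted genes was made because of these values and contains both genes. Of its members 8 were higher by 1 or more in tumor 12 than in tumor 10 (6.12% of all genes). Against tumor 11 there were 6 higher by 1 or more in tumor 12 (2.69%). These counts are a description and no independent support. The exceptions included Meg3, with overlapping exons (12.7, 8.25 and 7.78 TPM) and Dlk1, at or below 0.400 TPM in all 3. Capn6, a calpain family member on chromosome X with overlapping exons, had 2.56, 17.0 and 193 TPM in tumors 10, 11 and 12.

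Leukocyte and fat genes also differed between these sisters. All 7 neutrophil genes were higher in tumor 10 than in tumor 11, 5 of them by 1 or more (4.4% of all genes), while against tumor 12 they were higher for 5 of 7. S100a9 had 223, 65.6 and 113 TPM in tumors 10, 11 and 12. All 8 macrophage genes were higher in tumor 10 than in either sister, and the complement gene C1qa had 912, 487 and 490 TPM. Of the 8 plasma cell genes 7 were higher in tumor 10 than in tumor 11, but against tumor 12 they went both ways, 4 higher and 3 lower (median 0.03). Igkc had 1481 TPM in tumor 10, 330 TPM in tumor 11 and 1166 TPM in tumor 12, whereas Igha had 321, 127 and 573 TPM. All 9 adipocyte genes were higher in tumor 10 than in tumor 11, 7 of them by 1 or more, and 7 of 9 were higher than in tumor 12. Cfd, a complement protease secreted by fat cells, had 59.2, 4.12 and 15.4 TPM. The fibroblast and matrix genes, by contrast with tumors 3 and 4, showed no common direction: Col3a1 had 182, 147 and 170 TPM, and Dcn 57.5, 12.96 and 52.5 TPM. The part of these cell types in the other differences between the sisters was not tested.

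**Figure D2:**
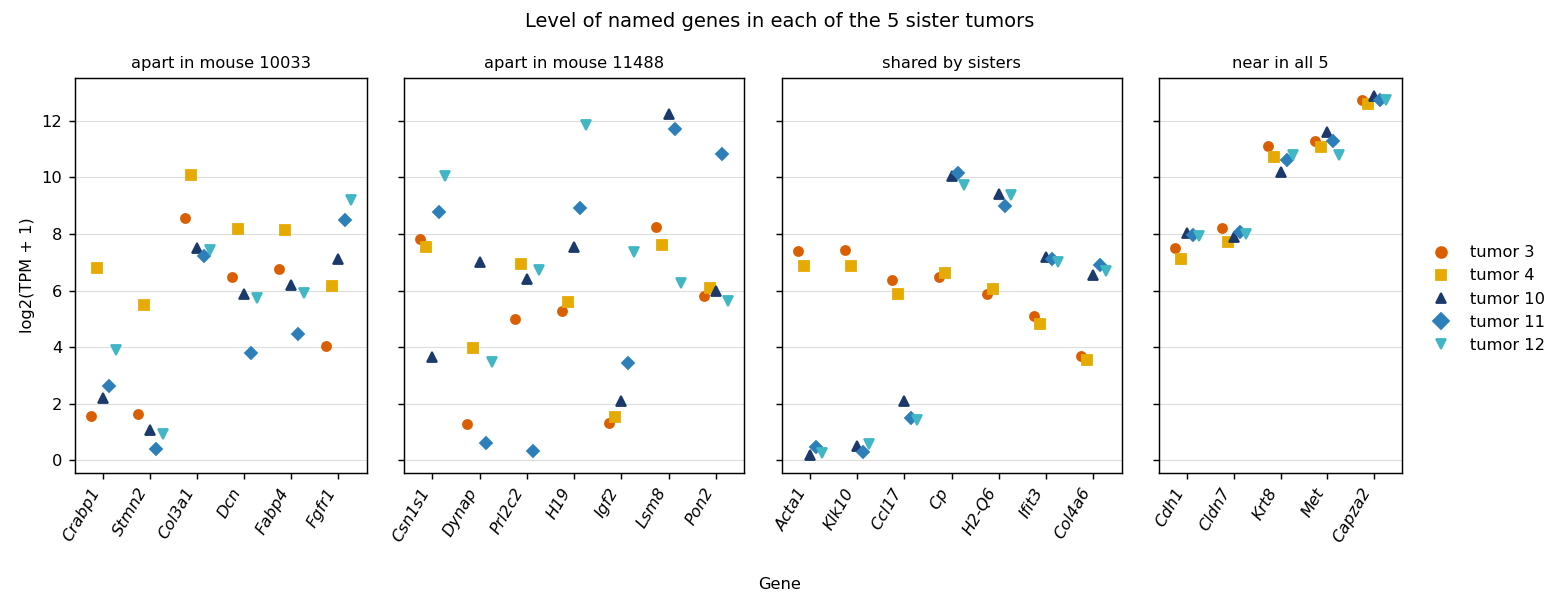
Points are log2(TPM + 1) of single tumors for genes named in the text, in 4 panels by whether sisters of mouse 10033 or of mouse 11488 were apart, sisters were alike and the mice apart, or all 5 tumors were near each other. Tumor 4 is alone at the top for Crabp1 and Stmn2, tumor 12 for H19 and Igf2, and tumor 11 for Pon2.

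Few members of the cell division, lipid synthesis and antigen presentation lists were apart between sisters, though such genes are a minority overall (16.1% of all genes were apart in at least 1 sister pair). Of the 14 mitosis and proliferation genes 0 were apart in any of the 4 sister pairs. Mki67, a marker of cycling cells, had 123 and 102 TPM in tumors 3 and 4 and 71.2, 74.6 and 74.1 TPM in tumors 10, 11 and 12. Of the 7 MHC class II genes, which present antigen to T cells, 0 were apart. All 7 were nevertheless higher in tumor 4 than in tumor 3, with a median of -0.37 for tumor 3 minus tumor 4, and all 7 were higher in tumor 10 than in tumor 11 (median 0.44) and in tumor 12 (median 0.46). Of the 12 sterol and fatty acid genes 1 was apart in any sister pair: Acaca, the first enzyme of fatty acid synthesis, had 15.1 TPM in tumor 10 and 35.9 and 41.2 TPM in tumors 11 and 12. The targeted gene Trp53 had 62.5 and 63.4 TPM in mouse 10033 and 55.2, 60.9 and 45.6 TPM in mouse 11488. Brca1 had 20.3 TPM in each of tumors 3 and 4, and 9.08, 16.6 and 15.8 TPM in tumors 10, 11 and 12. These values do not separate mutant from intact alleles. Myc, a growth regulator, had 66.6 and 62.6 TPM in tumors 3 and 4 and 83.2, 123 and 168 TPM in tumors 10, 11 and 12, and was apart between tumors 10 and 12. The cell cycle inhibitor Cdkn2a, which like Fgfr1 was apart between tumors 3 and 4, had 77.9 and 164 TPM there and 189, 243 and 137 TPM in mouse 11488.

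**Figure D3:**
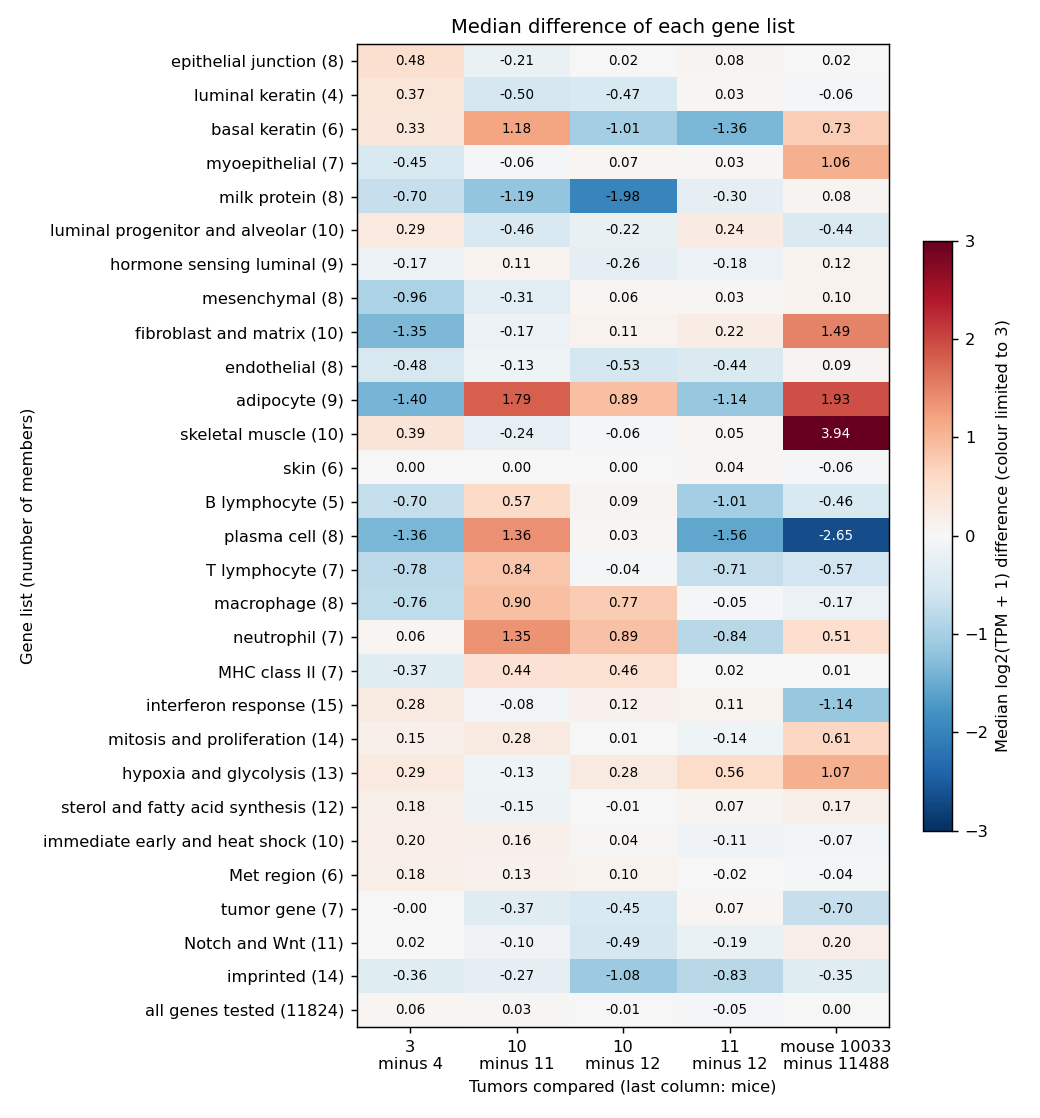
Each cell gives the median difference in log2(TPM + 1) over the members of a list (number of members in brackets) for the 4 sister pairs and, in the last column, for the mean of mouse 10033 minus the mean of mouse 11488, with all 11824 genes in the bottom row. The first column is lowest for adipocyte (-1.40), plasma cell (-1.36) and fibroblast and matrix genes (-1.35).

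Which genes differed between the mice by more than sisters differed from each other was asked with limma on log2(TPM + 1), with Benjamini-Hochberg adjustment over all 11824 genes and a threshold of 0.05. It called 1375 genes (11.6%), 808 higher in mouse 10033 (6.83%) and 567 higher in mouse 11488 (4.8%). Since 2 tumors of 1 mouse were set against 3 of another, the test speaks of these mice and measures error by the spread between sisters. At an unadjusted p under 0.05 there were 4074 genes. The adjusted count rested on each tumor: it was 18 without tumor 3, 44 without tumor 4, 3526 without tumor 10, 297 without tumor 11 and 552 without tumor 12. A rule without a test, that each pair between the mice differs in the same direction and by more than any sister pair, held for 2256 genes (19.1%). Of the 58 named genes that limma called, 58 remained called without tumor 10, 29 without tumor 11 and 33 without tumor 12. Without tumor 3 or tumor 4 a single tumor stood for mouse 10033, and most of these calls were lost. None of the 58 changed direction. They were chosen partly from the calls themselves, and some, muscle genes among them, passed the filter through mouse 10033 alone. These numbers are therefore a description and no independent support. The number of genes that did not overlap was 3558 without tumor 4, 5083 without tumor 10 and 3584 without tumor 12.

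Skeletal muscle genes were shared by the sisters of mouse 10033 and low in mouse 11488. The 10 genes of the list summed to 439 and 309 TPM in tumors 3 and 4 and to 5.36, 24.2 and 32.1 TPM in tumors 10, 11 and 12, where 6, 3 and 4 of them were listed at 0. Acta1, the actin of skeletal muscle, had 168 and 115 TPM in tumors 3 and 4 and at most 0.398 TPM in mouse 11488. The troponin gene Tnnt3 had 48.0 and 35.9 TPM against 0 to 0.668 TPM. Mylpf, a fast muscle myosin light chain, had 107 and 66.8 TPM against 2.62 to 5.65 TPM. Of the 10 genes on the list 8 passed the filter, 7 of them through mouse 10033 alone, so no test is given for them. The exception was Mb, which carries oxygen in muscle and whose exons overlap another gene, with 15.9 and 15.2 TPM in mouse 10033 and 2.47, 17.5 and 25.4 TPM in mouse 11488. All 10 genes were higher in tumor 3 than in tumor 4, none by 1 or more. Some body muscle lies next to mammary tissue, and the part of muscle taken with the tumor was not tested. Other genes that were high in both tumors 3 and 4 are not known as muscle genes. Klk10, a secreted serine protease of the kallikrein family, had 170 and 115 TPM against 0.233 to 0.486 TPM. Ccl17, a chemokine that attracts T cells, had 81.5 and 57.5 TPM against 1.71 to 3.25 TPM. Klk10 and Ccl17 also passed the filter through mouse 10033 alone. Areg, an EGF receptor ligand, had 191 and 162 TPM against 44.7, 11.4 and 13.1 TPM (difference 3.14 ± 0.58 (SE) on the log2(TPM + 1) scale, limma, adjusted p = 0.0321), so tumor 10 was also apart from its sisters. This call was lost without tumor 3, 4, 11 or 12 and with no filter on low values.

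Hypoxia genes lay on the same side. All 13 hypoxia and glycolysis genes were higher in mouse 10033 on average, and limma called 5 of them, against 6.83% of all genes. Car9, a carbonic anhydrase induced by low oxygen, had 74.2 and 54.7 TPM in tumors 3 and 4 and 5.56, 21.1 and 8.30 TPM in tumors 10, 11 and 12 (limma, adjusted p = 0.0387). Car9 overlaps another gene in its exons. The glycolytic enzyme gene Pgk1 had 1094 and 914 TPM against 508, 557 and 378 TPM (limma, adjusted p = 0.0403). The Notch and Wnt list went both ways, with 6 of 11 members higher in mouse 10033 and 5 in mouse 11488 (median difference 0.20), and limma called 3 of the 6 tested, all higher in mouse 10033. Among these, the Notch receptor Notch3, with overlapping exons, had 47.0 and 34.9 TPM against 15.1, 16.3 and 17.6 TPM (limma, adjusted p = 0.0213), and the Notch target Hey1 23.4 and 20 TPM against 5.38, 8.02 and 10.1 TPM (limma, adjusted p = 0.0344). For each of these 4 genes both values of mouse 10033 were above the 3 of mouse 11488. With no filter on low values the calls of Car9, Pgk1 and Hey1 were lost and that of Notch3 was kept. The call of Pgk1 was also lost with 1 TPM or more in at least 1 tumor. Without tumor 3 or without tumor 4 the calls of both lists were lost. A single tumor then stood for mouse 10033 and few genes were called in all, so this loss says little about the lists. Without tumor 11 limma called 1 hypoxia gene and 0 Notch and Wnt genes, and without tumor 12 it called 1 and 2. Fewer genes were called in all there too.

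Interferon response genes were higher in the sisters of mouse 11488. Interferons bind receptors that activate STAT and IRF factors, which switch on antiviral genes such as those of the IFIT and OAS families. All 15 genes of the list passed the filter, all 15 were higher in mouse 11488 on average, and limma called 8 of them, against 4.8% of all genes. Ifit3 had 33.4 and 27.4 TPM in tumors 3 and 4 and 146, 137 and 127 TPM in tumors 10, 11 and 12, a difference of -2.13 ± 0.17 (limma, adjusted p = 0.00466). Ifit1 had 27.6 and 24.7 TPM against 82.0, 104 and 79.7 TPM (difference -1.71 ± 0.19, limma, adjusted p = 0.0112). Isg15, a ubiquitin-like modifier, had 173 and 134 TPM against 287, 352 and 332 TPM (difference -1.08 ± 0.19, limma, adjusted p = 0.0299). Oas1a, which senses double-stranded RNA, had 75.2 and 62.9 TPM against 130, 130 and 117 TPM (difference -0.86 ± 0.17, limma, adjusted p = 0.0346). In each of these 4 genes the lowest tumor of mouse 11488 was above the highest of mouse 10033. The 7 members not called included Cxcl10, a chemokine with overlapping exons, with 69.5 and 50.8 TPM against 252, 94.4 and 200 TPM. The list had 4 calls without tumor 11 and 5 without tumor 12, where fewer genes were called in all. Its calls were lost without tumor 3 or without tumor 4. A single tumor then stood for mouse 10033 and few genes were called in all, so this loss says little about the list. One tested gene of this family outside the list went the other way: Ifi44l, named after its values were seen, had 17.5 and 18.8 TPM in mouse 10033 and 0 to 0.169 TPM in mouse 11488. It had 5.42 to 85.4 TPM in the 7 other tumors, so it was near 0 in mouse 11488 only.

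Promoter sequences are shown for this list because its members moved together. The core of the interferon-stimulated response element was searched on both strands as GAAA, 2 bases of any kind and GAAA again, in the 250 bases before each gene's start, in promoter sequences of RefSeq (build GRCm38.p6). Of the 15 listed genes 11 matched a promoter by symbol and 7 of these held the core, beside 936 of all 27025 genes with a promoter (3.46%). Of the 8 genes called higher in mouse 11488, 6 had a promoter and 4 held the core. These 4 are shown 5′ to 3′ in the direction of the gene, with the matches in capitals. They lie at chr4:156200819-156201068 (minus strand), chr19:34640639-34640888 (plus), chr19:34583279-34583528 (plus) and chr5:120907526-120907775 (minus), and a match on the other strand reads TTTC, 2 bases and TTTC.
Isg15: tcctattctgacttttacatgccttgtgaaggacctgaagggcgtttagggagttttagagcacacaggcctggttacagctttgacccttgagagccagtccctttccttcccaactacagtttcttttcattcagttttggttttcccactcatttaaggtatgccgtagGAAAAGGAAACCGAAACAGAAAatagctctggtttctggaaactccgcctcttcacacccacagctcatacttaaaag
Ifit1: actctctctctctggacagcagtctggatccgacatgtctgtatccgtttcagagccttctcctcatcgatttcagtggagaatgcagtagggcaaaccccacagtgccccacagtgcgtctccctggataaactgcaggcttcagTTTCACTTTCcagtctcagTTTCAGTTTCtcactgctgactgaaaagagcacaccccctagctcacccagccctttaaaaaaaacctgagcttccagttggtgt
Ifit3: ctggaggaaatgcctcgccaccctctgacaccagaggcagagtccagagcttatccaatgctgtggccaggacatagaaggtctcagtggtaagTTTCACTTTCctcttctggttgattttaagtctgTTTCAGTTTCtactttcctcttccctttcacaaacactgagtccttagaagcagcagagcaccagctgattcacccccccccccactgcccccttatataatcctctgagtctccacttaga
Oas1a: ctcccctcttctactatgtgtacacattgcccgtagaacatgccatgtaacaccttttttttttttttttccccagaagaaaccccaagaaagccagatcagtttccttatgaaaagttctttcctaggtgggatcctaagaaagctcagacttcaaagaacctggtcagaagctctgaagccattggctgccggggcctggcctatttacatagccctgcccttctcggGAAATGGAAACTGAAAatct
Isg15 holds 3 overlapping matches and the other genes 2 each. A match describes letters in a window and does not show that a factor was bound in these tumors. Among the other lists searched, the E-box CAGCTG, a binding sequence of muscle regulators, was in 6 of the 9 skeletal muscle genes with a promoter and in 14.7% of all genes. The AP-1 sequence TGACTCA was in 0 of the 8 immediate early and heat shock genes with a promoter and in 5.16% of all genes.

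Other genes were higher in each sister of mouse 11488 than in mouse 10033. Cp, the copper-binding ferroxidase ceruloplasmin, had 87.5 and 97.3 TPM in tumors 3 and 4 and 1044, 1140 and 857 TPM in tumors 10, 11 and 12 (difference -3.43 ± 0.19, limma, adjusted p = 0.00189). Cp overlaps another gene in its exons. Col4a6, a chain of basement membrane collagen, had 12.0 and 10.6 TPM against 92.4, 120 and 102 TPM (difference -3.10 ± 0.18, limma, adjusted p = 0.00192). The imprinted zinc finger gene Peg3 had 2.09 and 3.10 TPM against 23.9, 30.5 and 66.8 TPM and passed the filter through mouse 11488 alone, with tumor 12 apart from both sisters. The calls of Cp and Col4a6 were lost without tumor 3, where a single tumor stood for mouse 10033. The differences there were -3.36 for Cp and -3.18 for Col4a6. For each of these 3 genes both values of mouse 10033 were below the 3 of mouse 11488. In the 7 other tumors the medians were 747 TPM for Cp, 33.0 TPM for Col4a6 and 0.850 TPM for Peg3. Beside these medians Cp was low in mouse 10033, while Peg3 was high in mouse 11488. The class I genes of the H2-Q group included H2-Q6 at 57.8 and 65.9 TPM against 674, 501 and 667 TPM, and H2-Q7 at 55.0 and 57.3 TPM against 470, 376 and 529 TPM. In the 7 other tumors H2-Q6 had 209 to 1542 TPM and H2-Q7 78.0 to 1280 TPM, so both were lowest in mouse 10033. H2-Q6 and H2-Q7 are closely related copies, as are the interferon-inducible GTPases Tgtp1 and Tgtp2, so reads can be shared within each pair. Plasma cell genes were higher in mouse 11488 for 7 of 8 members. Igha, the IgA heavy chain, had 12.96 and 17.4 TPM against 321, 127 and 573 TPM (limma, adjusted p = 0.0205). This call was lost without tumor 3, without tumor 4 and with no filter on low values. Tumor 11 was apart from both sisters for Igha. Of the 8 plasma cell genes 7 were higher by 1 or more in tumor 12 than in tumor 11, against 2.69% of all genes.

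A few genes were on in all tumors of 1 mouse, at 10 TPM or more, and off, under 1 TPM, in all of the other. There were 15 such genes on in mouse 10033 and 4 on in mouse 11488, 19 in all, with 37 without tumor 4 and 33 without tumor 10. The 4 were Scrg1 and, named after their values were seen, Gm8420, H2-Ea-ps and Igkv8-30. H2-Ea-ps was listed at 0 in tumors 3 and 4 and at 19.1, 13.6 and 12.3 TPM in tumors 10, 11 and 12. It belongs to the MHC class II E alpha gene. Between sisters 97 genes were on in 1 tumor and off in another, 15 of them immunoglobulin gene segments, with 40 without tumor 10 and 52 without tumor 12. The largest group was the 42 genes on in tumor 12 and off in tumor 10, beside 10 in the other direction. Tumor 3 had 2 genes on that were off in tumor 4, and tumor 4 had 14 that were off in tumor 3.

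Set against all 12 tumors, the sisters of mouse 10033 had 7 genes to themselves, at 10 TPM or more in both and under 1 TPM in the other 10, a count added after seeing the data. Of the 62 pairs of tumors from different mice, 58 had 0 such genes and the highest, tumors 7 and 8, had 2. Of the 7 genes, 5 encode muscle proteins (Pvalb, Tnnc2, Atp2a1, Myh4 and Myl1). The others were long noncoding RNAs on chromosome 6, both listed at 0 in all 10 other tumors. Gm43998 (chromosome 6 from 16550387 to 16579873, plus strand, GRCm38) had 196 and 148 TPM, and 4930412F09Rik (chromosome 6 from 30896899 to 30943470, plus strand) had 87.7 and 67.1 TPM. The 3 sisters of mouse 11488 had 0 genes to themselves, as did 216 of the 219 other trios of tumors. Tumor 12 alone had 2, Zscan10 at 12.6 TPM and Strc, with overlapping exons, at 10.4 TPM.

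The region of Met on chromosome 6 showed both sharing and divergence. Met, the receptor of hepatocyte growth factor (chromosome 6 from 17463800 to 17573980, plus strand), had 2492 and 2135 TPM in tumors 3 and 4 and 3119, 2475 and 1788 TPM in tumors 10, 11 and 12, with a median of 1468 TPM in the 7 other tumors. Its neighbor Capza2, an actin-capping subunit, lay between 6142 and 7428 TPM in the 5 tumors. Neither was apart in any sister pair. Genes farther out were high in some sisters only. Lsm8, an RNA-binding protein that starts 1.39 megabases beyond the start of Met, had 4876 and 3302 TPM in tumors 10 and 11 but 76.3 TPM in tumor 12, with 306 and 196 TPM in tumors 3 and 4. In the 7 other tumors it had a median of 113 TPM and a maximum of 5165 TPM. Tumor 12 was thus low for Lsm8 and within 2-fold of its sisters for Met. Pon2, a paraoxonase with overlapping exons that lies 12.2 megabases before Met, had 1814 TPM in tumor 11 and 49.2 to 66.7 TPM in the 4 others. Pon3 beside it, named after its values were seen, had 325 TPM in tumor 11 and 8.33 to 20.5 TPM in the others. Pdk4, a regulator of pyruvate use, had 213 TPM in tumor 11 against 13.2 and 5.90 TPM in tumors 10 and 12, and 87.0 and 76.3 TPM in mouse 10033. Cttnbp2, with overlapping exons, had 85.3 TPM in tumor 11 and at most 3.75 TPM in the others. In mouse 10033 Cav1, a caveolin gene between Tes and Met, had 523 TPM in tumor 3 and 1259 TPM in tumor 4. The caveolin gene Cav2 beside it went the other way, with 2180 and 1690 TPM. St7, with overlapping exons, had 57.3 and 172 TPM in tumors 3 and 4. St7 was at 505, 468 and 473 TPM in mouse 11488 (limma, adjusted p = 0.0365). This call was lost without tumor 3, tumor 11 or tumor 12 and with no filter on low values. DNA copy number of these tumors was not analysed here.

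**Figure D4:**
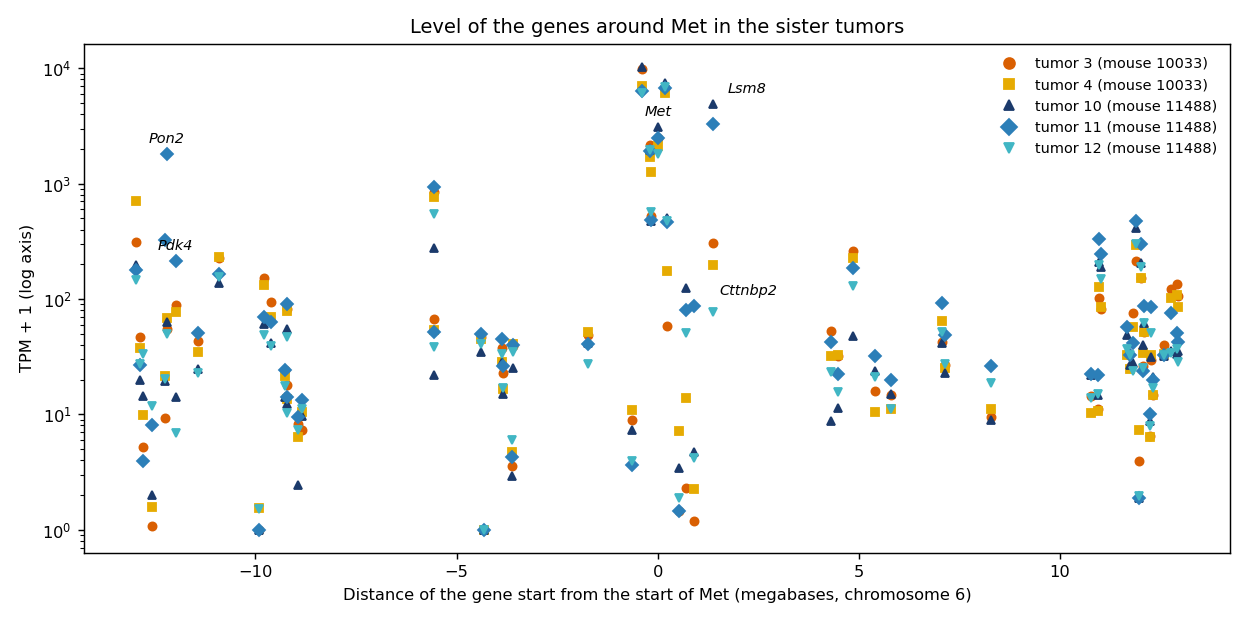
Points are TPM + 1 on a log axis for protein-coding genes within 13 megabases of the start of Met, 1 symbol per sister tumor. The peak at Met holds all 5 tumors, Lsm8 to its right holds tumors 10 and 11 at 4876 and 3302 TPM, and Pon2 at the left holds tumor 11 alone at 1814 TPM.

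Differences also followed position on a larger scale. Protein-coding genes were taken in 255 runs of 40 neighbors along each chromosome, the last of each holding the remainder, and the median log2(TPM + 1) difference of each run was taken for each pair. Between tumors 3 and 4 the run medians stayed between -0.22 and 0.28 (SD 0.091), and no run reached 0.5 in either direction. Runs at or beyond 0.5 numbered 7 between tumors 10 and 11 (SD 0.273), 22 between tumors 10 and 12 (SD 0.307) and 5 between tumors 11 and 12 (SD 0.152). Between the mice there were 33 (SD 0.345). Smaller shifts with position were present between tumors 3 and 4 too. On chromosome 12 from Rhoj to Macc1 (75308322 to 119469987) 4 runs in a row had medians of 0.24 to 0.28, with 36 to 38 of 40 genes higher in tumor 3 in the first 3 runs and 69 of 79 in the last. On chromosome 19 from Dpp3 to Capn1 (4907229 to 6015897) the median was -0.22, with 8 of 40 genes higher in tumor 3.

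On chromosome 11 tumor 10 and tumor 12 each stood apart from both sisters. The chromosome carries Trp53, Brca1 and the MADM cassettes. From Wfdc17 to BC030867 (83703991 to 102265187) 5 runs in a row were lowest in tumor 10, with medians of -0.85 to -0.96 for tumor 10 minus tumor 11 and -0.76 to -0.89 for tumor 10 minus tumor 12, while tumor 11 minus tumor 12 gave -0.04 to 0.10. Wfdc18 and Acaca, described above as low in tumor 10, lie in this stretch. In the last of these runs, which contains Brca1 (101488764 to 101551955, minus strand), 2 of 40 genes were higher in tumor 10 than in tumor 11. From Rnasek to Evi2b (70238124 to 79581612), 3 runs were highest in tumor 12, with medians of -0.48 to -0.65 for tumor 11 minus tumor 12 and -0.84 to -0.97 for tumor 10 minus tumor 12. On chromosome 12 from Rab10 to Cpsf2 (3247428 to 102006424), 7 runs in a row had medians of -0.51 to -0.65 for tumor 10 minus tumor 12. Other runs also differed within this mouse. On chromosome 6 from Mtpn to Zfp212 (35508906 to 47932639) the 3 tumors were graded, with medians of -1.09 for tumor 10 minus tumor 11, -0.68 for tumor 10 minus tumor 12 and 0.42 for tumor 11 minus tumor 12. On chromosome 17 from Fam179a to Gm10184 (71673261 to 89910449), which contains Epcam, the median was 0.51 for tumor 11 minus tumor 12 and 0.63 for tumor 10 minus tumor 12. Epcam itself, an epithelial adhesion gene, had 702, 850 and 320 TPM in tumors 10, 11 and 12. Across chromosome 8 the median was 0.41 for tumor 10 minus tumor 11 and 0.37 for tumor 10 minus tumor 12.

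Chromosome 12 separated the mice. Over its 359 protein-coding genes the median difference of mouse 10033 minus mouse 11488 was 0.86, and limma called 154 genes higher in mouse 10033 and 2 in mouse 11488, 43.5% beside the 11.6% over all genes. Toward the end of the chromosome, from Rin3 to Macc1 (102283048 to 119469987), the run median was 1.36. Tumors 3 and 4 lay closer to each other, with a median of 0.20 for tumor 3 minus tumor 4 over the whole chromosome. In the run from Rin3 to Macc1 it was 0.24, with 69 of 79 genes higher in tumor 3. After chromosome 12 the largest share was on chromosome 13, with 18.9% of 366 genes called and a median of -0.40. There 10 calls were higher in mouse 10033 and 59 in mouse 11488. Chromosome 6 lay on the same side, with a median of -0.49, 12 calls higher in mouse 10033 and 67 in mouse 11488 (15.6% of 508 genes). On chromosome 5 the median was 0.36, with 97 calls higher in mouse 10033 and 9 in mouse 11488 (15.5% of 683 genes).

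**Figure D5:**
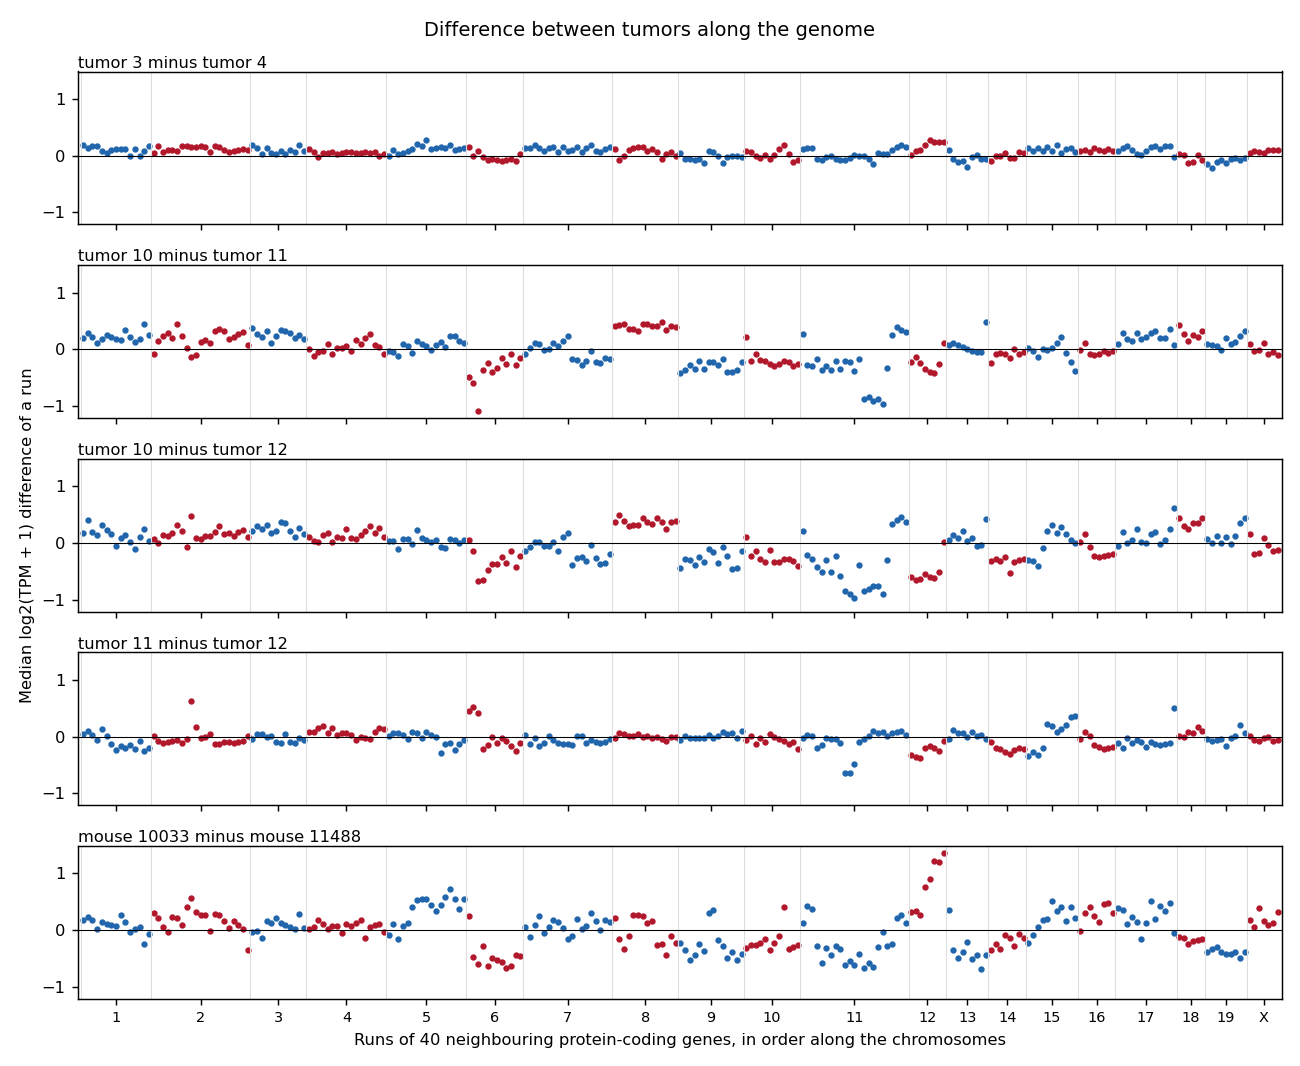
Each point is the median log2(TPM + 1) difference of 40 neighboring protein-coding genes, in genome order with chromosomes in alternating colors, for the 4 sister pairs and for the means of the mice. The points of tumors 3 and 4 stay within -0.22 and 0.28, those of tumor 10 against its sisters drop to -0.96 and -0.97 on chromosome 11, and the last panel rises to 1.36 on chromosome 12.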

How the data were processed

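RNA of 12 mammary tumors was sequenced. Per the submitters' notes and the study's methods, the authors aligned reads with HISAT and quantified them with StringTie 2.1.6, and the deposited values are TPM per gene. How transcripts were combined per gene is not given in the sources used here, and TPM keeps no read number, so depth is unknown. Sister tumors of 1 mouse were treated as replicates of that mouse, so p-values measure only the spread between sisters. Groups came from the animal numbers in the labels. Columns outside the 12 tumors numbered 0.

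Genes with 10 TPM or more in at least 1 of the 5 sister tumors were compared on log2(TPM + 1), with a pseudocount of 1. Pairs were described without a test. The mice were compared with limma 3.58.1 (R 4.3.3), adjusted by Benjamini-Hochberg over all genes tested, and distances with an exact permutation (Python 3.11.15, numpy 2.4.6, pandas 2.3.3, figures with matplotlib 3.10.9). The limma step was tested on simulated data. Named genes were the 5 protein-coding genes with the largest difference in each direction of each sister pair, the 10 with the largest fold in each direction among called genes without overlap, the 5 highest on and off genes in each direction, and the members of the gene lists. Other named genes were chosen after their values were seen. A gene that this rule names is not reported here. The 27 lists, the members and the tests were chosen with earlier results of these data known. GENCODE vM21 placed 47137 of the 47593 gene identifiers on GRCm38 and marked genes whose exons overlap another gene. The study's methods name a different annotation release and a stranded library kit, and whether counting used strand is not given in the sources used here. Alternatives changed the pseudocount, filter, scaling, distance, fold, variance prior and threshold, and left out each tumor in turn.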

Additional observations from a re-analysis of the deposited data

How the results depend on the processing

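The excess of between-mouse over within-mouse distance kept its direction under all 12 alternatives, at 0.17 to 0.36 with a tumor left out and 0.08 to 0.27 otherwise. Counts of genes apart between sisters, in the order tumors 3 and 4, 10 and 11, 10 and 12, and 11 and 12, were 851, 1954, 2486 and 1178 with 1 TPM or more in at least 1 tumor. They were 109, 399, 531 and 103 with 10 TPM or more in all 5 tumors, and 66, 222, 266 and 96 for a difference of 2 or more. With protein-coding genes free of exon overlap, an alternative chosen after seeing the data, they were 204, 651, 760 and 234. In each of these settings fewer or more genes could count by construction. Tumor 10 was farther from tumors 11 and 12 than these were from each other in each setting.

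With each tumor left out, limma called between 18 and 3526 genes, between 15 and 1808 higher in mouse 10033 and between 3 and 1718 higher in mouse 11488. The other alternatives gave 1198 to 1691. Leaving out a tumor gave 3044 to 5083 genes without overlap between the mice, 24 to 37 on and off genes between the mice and 40 to 82 between sisters. With 5 TPM in place of 10 TPM the last counts were 55 and 288. The cause of these changes was not tested. Where a tumor of mouse 10033 was left out, the lone tumor was assumed to vary like those of mouse 11488. Of the 58 named genes called between the mice, 33 remained called with no filter on low values. No paired analysis was possible because the groups are the mice themselves and the labels give no replicate numbers. The suffix 5L, which a tumor of each mouse carries, is not explained and was not used to pair them. Depth limits could not be assessed from TPM.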
